A study of Rattus norvegicus with 8 samples.

Results

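The response of the rat lung to hypobaric hypoxia after cobalt pretreatment was read from 4 two-colour whole-genome oligonucleotide arrays, of 8 arrays in the series. The 4 were chosen by their labelled pretreatment and by nothing measured on them. Each set lung RNA of rats exposed to an altitude of 30000 ft for 6, 12, 24 or 48 h, labelled with the green dye Cy3, against lung RNA of 0 h rats without exposure, labelled with the red dye Cy5. Exposed and 0 h rats alike had received cobalt at 12.5 mg per kg body weight for 7 days. The other 4 arrays held the same durations and the 0 h control after 7 days of normal saline, with the dyes the other way round (exposed lungs in Cy5, 0 h lungs in Cy3). The labels used here give no strain, sex, age, cobalt salt or route, and do not say how many rats contributed to an RNA, so the p-values below measure the spread between arrays of different durations, which are the only replicates of a pretreatment, and not a spread between animals. The labels do not say whether the 0 h RNA of a pretreatment was the same on all its arrays. If it was, its own spread enters no p-value. All 8 arrays entered the fit, so the SE and p-value of a cobalt mean also carry the spread of the 4 saline arrays.

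The values are log2 ratios of hypoxia over 0 h, so that 1 is a doubling and -1 a halving. The mean of the 4 cobalt arrays was tested against 0 with limma, and rose, fell and called are used below only of genes with a Benjamini-Hochberg adjusted p under 0.05 over all 24161 genes tested, of which 12070 carried a gene symbol. All 4 cobalt arrays had the same dye orientation, so a dye bias of a probe does not cancel in their mean. It cancels in the average of both pretreatments as far as it is shared by both slides, and that average is given beside most of the groups of genes. The average contains the cobalt arrays and is therefore no independent check of them. Pretreatment, slide, scan day and dye orientation coincided and cannot be told apart.

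Hypoxia-inducible factors (HIFs) are transcription factors whose alpha subunits are hydroxylated and degraded when oxygen is plentiful. They accumulate when oxygen is low, and also when cobalt interferes with the iron-dependent prolyl hydroxylases. They bind a short core motif, RCGTG, and switch on genes of glucose uptake, glycolysis, iron transport, collagen modification and vessel growth. In the lung, low oxygen also constricts pulmonary arteries, and long exposure adds smooth muscle to their walls. Because cobalt was given to both RNAs of every array described here, genes already raised by cobalt at 0 h would show only what hypoxia added.

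Across the cobalt arrays, 57.7 to 63.4% of probes were well above background in the hypoxia channel, against 63.5 to 69.7% in the 0 h channel. Between 204 and 232 spots per array were saturated in red, which held the 0 h RNA, and at most 1 in green, which held the hypoxia RNA. A gene whose probe was saturated at 0 h on every cobalt array has a ratio that is bounded by the scanner, and no fold is given for it. The log2 ratios of different cobalt arrays correlated at 0.412 to 0.751 over all genes, which are not replicates, and the arrays share probes and a labelled 0 h group. Tested markers of type II, type I, club and ciliated epithelium, endothelium, smooth muscle, macrophages, and T and NK cells were all well above background in hypoxic lungs, as fits the labelled tissue. The heart genes Myh6 and Myl7 were well above background on 2 of 4 arrays in hypoxic lungs and 4 of 4 in 0 h lungs. For Nppa the counts were 1 in hypoxic and 3 in 0 h lungs, and for the adipocyte gene Adipoq 0 and 1. The thyroid gene Tg was well above background on 4 of 4 arrays in both. The part of neighbouring tissue in these values was not tested. In bulk tissue, fewer cells of a type and less RNA per cell cannot be told apart.

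After cobalt, 5025 of 24161 genes (20.8%) responded to hypoxia: 2060 rose (8.53%) and 2965 fell (12.3%). Of these, 4982 had the same sign at all 4 durations, against 47.3% of all genes. A call on the mean of the same 4 arrays favours a shared sign, so this is no further support. Changes were mostly small, with 200 genes called above 1 and 114 called below -1. Counts in the lists below are to be read against the shares over all genes, 8.53% higher and 12.3% lower. Leaving out a single array lowered the number called to 3044 without 6 h, 2449 without 12 h, 2238 without 24 h and 3302 without 48 h. The average of both pretreatments called 31.9% of all genes, 15.7% higher and 16.3% lower, and among these were 1322 of the 2060 (64.2%) that rose after cobalt and 1527 of the 2965 (51.5%) that fell. How arrays were centred mattered for small ratios: with the median of each array set to 0 in place of an intensity-dependent loess curve, the tested genes had a median of -0.49, against -0.018, and most list medians below moved down with it. Under it the means of 22 named genes changed sign, among them Slc2a1, Ldha, Hif1a, Vegfa, Txnrd1, Per1, Calr, Hspb8, Nrtn, Tap2 and Cycs, so the directions given for these hold under loess and the other normalizations tried.

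The genes with the highest mean ratios were led by secreted proteins. Slurp1, a small secreted protein of squamous epithelia, had log2 ratios of 2.11, 2.53, 4.12 and 3.28 at 6, 12, 24 and 48 h. Its mean over 4 arrays was 3.01 ± 0.32 (limma SE, adjusted p = 0.000508), or 8.07-fold. Every array lay far above 0, and the ratios were higher on both late arrays than on both early ones. Keratin 14 (Krt14), of basal epithelial cells, also rose, by 1.67 ± 0.19. The oesophageal keratin Krt13 had a ratio of 0.18 and was well above background on 3 of 4 arrays, and the part of neighbouring squamous tissue in these values was not tested.

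Ccn3, a matricellular protein of the CCN family, was raised evenly, with log2 ratios of 2.94, 2.46, 3.02 and 2.54. Its mean over 4 arrays was 2.74 ± 0.17 (limma SE, adjusted p = 2.88e-05). Its 4 arrays lay close together. Follistatin (Fst), which binds and neutralises activin, had a mean of 2.59 ± 0.17. Neuritin (Nrn1), a neurite growth factor, had 2.38 ± 0.30 and the BDNF receptor Ntrk2 had 2.22 ± 0.09. Ntrk2 varied little between durations, with 2.25, 1.93, 2.37 and 2.31 (adjusted p = 1.62e-06).

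The remaining leading genes were the muscle intermediate filament desmin (Des, 2.34 ± 0.11), the secreted whey acidic protein family member Wfdc21 (2.31 ± 0.51), the anion exchanger pendrin (Slc26a4, 2.29 ± 0.41), osteopontin (Spp1, 2.26 ± 0.38), the bradykinin precursor Kng1 (2.23 ± 0.23) and the growth factor Bmp2 (2.19 ± 0.13). Wfdc21 owed much of its mean to 24 h, where its ratio was 4.30, against 1.37 to 1.85 at the other durations. All 11 of these highest genes described here were also called higher in the average of both pretreatments.

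The 12 lowest named genes were led by enzymes that oxidise drugs and retinoids. Cyp2a3, a P450 of rat airways, had log2 ratios of -2.77, -2.71, -2.28 and -1.51. Its mean over 4 arrays was -2.32 ± 0.29 (limma SE, adjusted p = 0.00122). Cyp26b1, which breaks down retinoic acid, had -2.34, -2.46, -1.56 and -2.15 (mean -2.13 ± 0.16, adjusted p = 9.17e-05). Both genes were down at every duration with no array near 0. Cyp2f4, a club cell P450, followed at -1.99 ± 0.24, and Cyp2e1 at -1.93 ± 0.53, whose call was lost without the 12, 24 or 48 h array. The lung flavin monooxygenase Fmo2 fell by 1.55 ± 0.33, with its probe saturated at 0 h on 2 of 4 arrays and its call lost without 24 h.

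Anp32a, an acidic nuclear phosphoprotein, had an even decrease, with -1.86, -2.05, -1.74 and -1.91 (mean -1.89 ± 0.08, adjusted p = 2.3e-06), and the disulphide isomerase Pdia5 was similar at -1.54 ± 0.08. The other low genes were Lyve1, a hyaluronan receptor of lymphatic endothelium (-1.88 ± 0.22), the cytotoxic protease granzyme B (Gzmb, -1.50 ± 0.22), the mitotic genes Ckap2 (-1.45 ± 0.27) and Pimreg (-1.44 ± 0.35), and the respiratory chain subunit Cox8b (-1.94 ± 0.28). The Pimreg call was lost without 12 or 24 h. Of the 12, 8 were also called lower in the average of both pretreatments, the exceptions being Cyp2f4, Fmo2, Ckap2 and Pimreg. Several genes had a second probe with a smaller ratio in the same direction: 1.57 for Ntrk2, -1.28 for Lyve1, -0.44 for Gzmb, -0.55 for Pimreg, 0.69 for Plod2, 1.06 for Ccn1 and 0.43 for Saa4. The 4 probes of Txnrd1 ranged from 0.064 to 0.45, the highest being the value given below.

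**Figure D1:**
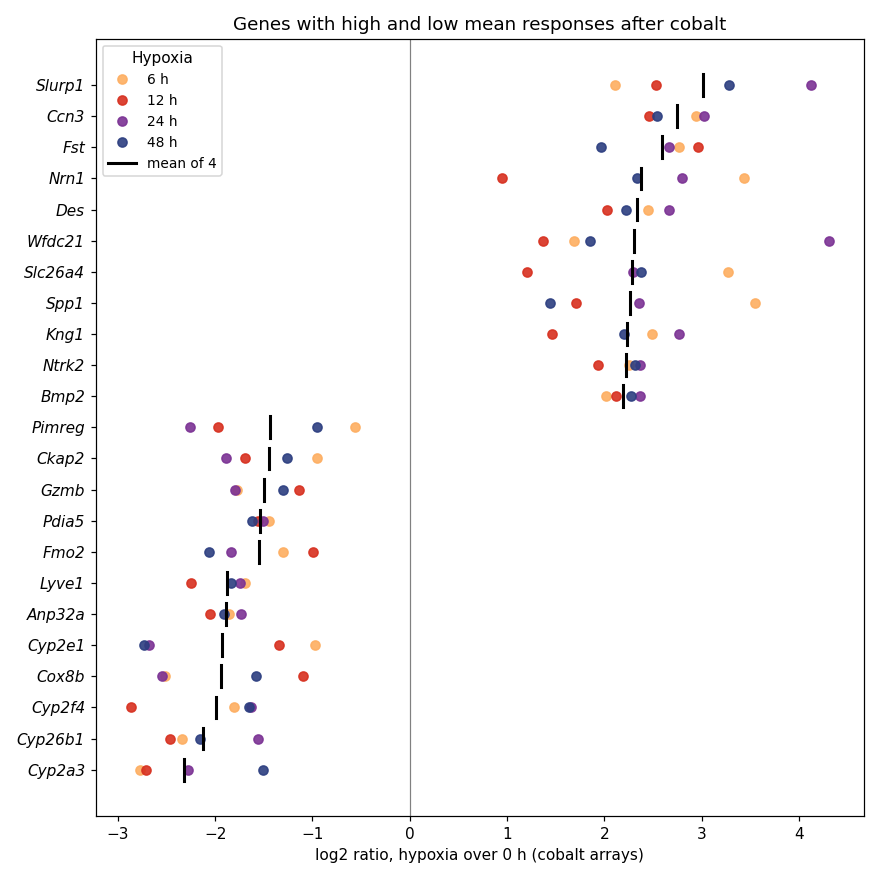
Log2 ratio of hypoxia over 0 h after cobalt for 11 of the highest and the 12 lowest named genes, with a point for each duration and a black bar for the mean of 4 arrays. Slurp1 lies highest at a mean of 3.01 and Cyp2a3 lowest at -2.32, and the points of Wfdc21, at 1.37 to 4.30, are among the most spread.

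The ratios of these genes rest on 60-base probes. Sequences are shown for Bmp2 and Anp32a, whose responses were large and even, for Cyp2f4, whose response had opposite signs after cobalt and saline, and for a pair of Cox8b probes that gave different values, with the positions that the array files give on rat build rn3. The probes are Bmp2 at chr3:121286700-121286759 on the plus strand, Cyp2f4 at chr1:82282638-82282697 on the plus strand, and Anp32a at chr8:66536426-66538355 on the plus strand, where the genomic span of 1930 bases is longer than the probe. The Cox8b probe behind the value above lies at chr1:201207352-201207411 on the minus strand, and the second at chr1:201207391-201207450 on the plus strand. The second Cox8b probe had a mean ratio of -0.04, against -1.94 for the first, and shares a run of 21 bases with the reverse complement of the first, so the pair reads opposite strands.
Bmp2: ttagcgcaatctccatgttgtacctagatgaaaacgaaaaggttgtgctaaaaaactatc
Cyp2f4: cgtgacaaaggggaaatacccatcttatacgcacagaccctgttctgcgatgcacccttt
Anp32a: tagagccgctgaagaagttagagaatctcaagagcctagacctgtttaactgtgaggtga
Cox8b, minus strand: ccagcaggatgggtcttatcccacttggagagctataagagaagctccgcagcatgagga
Cox8b, plus strand: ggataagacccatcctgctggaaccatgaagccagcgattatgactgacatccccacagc

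Among glycolysis genes and the glucose and lactate transporters, 15 of 22 tested rose and 1 fell. The list median was 0.56 (-0.30 with median centring, which was 0.19 above the median of all genes). The monocarboxylate transporter Slc16a3, which exports lactate, had the highest mean, 1.50 ± 0.33, with ratios of 2.17, 0.60, 2.15 and 1.07. Triose phosphate isomerase (Tpi1) had 1.19, 1.20, 1.82 and 1.18 (mean 1.35 ± 0.13, adjusted p = 0.000371) and aldolase A (Aldoa) had 1.12, 1.26, 1.47 and 1.13 (mean 1.25 ± 0.14, adjusted p = 0.000652). On the linear scale these means were 2.55-fold for Tpi1 and 2.37-fold for Aldoa, and in both 24 h was highest.

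The glucose transporter Slc2a1 had ratios of 1.38, 0.71, 1.24 and 0.56 (mean 0.98 ± 0.16), and lactate dehydrogenase A (Ldha) had 0.71, 0.42, 0.96 and 0.72 (mean 0.70 ± 0.15). The Ldha call was lost without 24 h (adjusted p = 0.057). Phosphofructokinase isoforms differed in direction: the liver type Pfkl rose by 1.17 ± 0.14 and the platelet type Pfkp by 0.53 ± 0.12, whereas the muscle type Pfkm fell by 0.74 ± 0.18. The other genes that rose were Eno2, Gapdh, Pkm, Eno1, Hk1, Aldoc, Pgk1 and Gpi, between 0.39 and 0.84. All 15 were also called higher in the average of both pretreatments.

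Of 30 other HIF targets, 12 rose and 4 fell, with a list median of 0.32 (-0.42 with median centring, 0.072 above all genes). Enzymes that modify collagen were prominent among those that rose: lysyl oxidase (Lox, 2.18 ± 0.27), the lysyl hydroxylases Plod2 (1.34 ± 0.15) and Plod1 (0.61 ± 0.10), and the prolyl hydroxylase subunit P4ha2 (0.87 ± 0.10). Haem oxygenase (Hmox1) had ratios of 1.24, 0.68, 1.74 and 0.75 (mean 1.103 ± 0.20), and the mitophagy receptor Bnip3 had 1.42, 0.90, 1.22 and 0.74 (mean 1.07 ± 0.17, adjusted p = 0.00289). Both were lower at 12 and 48 h than at 6 and 24 h. The transferrin receptor (Tfrc) rose by 0.62 ± 0.11.

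The 4 targets that fell were endothelin 1 (Edn1, -0.98 ± 0.21), the chemokine receptor Cxcr4 (-0.84 ± 0.10), Bnip3l (-0.40 ± 0.10) and the nuclear receptor Rora (-0.18 ± 0.05), whose call was lost without 6, 24 or 48 h. Edn1, the main vasoconstrictor peptide of endothelium, had -0.35, -0.82, -0.94 and -1.80, each duration lower than the one before. Vegfa, the angiogenic ligand, had -0.07, 0.19, -0.13 and 0.21 with a mean of 0.05 ± 0.09 (adjusted p = 0.748). Its values straddled 0. All 12 targets that rose, and 3 of the 4 that fell, were also called in the average of both pretreatments.

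The oxygen-sensing genes themselves moved little. Hif1a had 0.39, 0.06, 0.85 and 0.26 (mean 0.39 ± 0.12, adjusted p = 0.0435) and Epas1, which encodes the HIF alpha subunit of endothelium, had -0.29, -0.12, -0.60 and -0.29 (mean -0.33 ± 0.10, adjusted p = 0.042). The Hif1a call was lost without the 6, 24 or 48 h cobalt array (0.24 without 24 h) or the 24 or 48 h saline array, and the Epas1 call without any single cobalt array (-0.23 without 24 h) or the 24 h saline array. The prolyl hydroxylase Egln3 had a mean of 0.19 ± 0.09 (adjusted p = 0.173). Egln2 rose by 0.36 and the asparaginyl hydroxylase Hif1an by 0.23, Egln2 losing its call without any single cobalt array and Hif1an without 6, 12 or 24 h, and Egln2 had the opposite sign with median centring (-0.64). In the average of both pretreatments, 1 of the 3 higher calls in this list of 10 genes was found, that of Hif1a.

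Promoters of these genes were read for the HIF core as ACGTG or GCGTG on both strands, counting overlaps, from 250 bases before to 50 after the RefSeq start on build GRCr8. A match was found in 17 of 22 promoters (77.3%) of glycolysis and other HIF target genes that rose and had a promoter sequence, and in 14 of 21 (66.7%) of the members that did not rise. The share was 58.1% of the tested genes with a promoter (5722 of 9845) and 42.9% of all 27457 promoters. No match lay in the windows of Tpi1, Aldoa, Hk1, Pkm, Slc16a3 or Vegfa. The promoters of Bnip3 (chr1:203154913-203155212, minus strand, 4 matches), Ldha (chr1:106507842-106508141, plus strand, 6 matches) and Slc2a1 (chr5:138002272-138002571, plus strand, 4 matches) are shown because these targets rose and held several matches, with the matches in capitals.
Bnip3: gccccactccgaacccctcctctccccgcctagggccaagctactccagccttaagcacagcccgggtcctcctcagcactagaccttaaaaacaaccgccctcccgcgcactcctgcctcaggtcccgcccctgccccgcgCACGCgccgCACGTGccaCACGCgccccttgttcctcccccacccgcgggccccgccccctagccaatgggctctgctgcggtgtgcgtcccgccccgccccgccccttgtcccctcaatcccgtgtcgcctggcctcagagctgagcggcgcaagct
Ldha: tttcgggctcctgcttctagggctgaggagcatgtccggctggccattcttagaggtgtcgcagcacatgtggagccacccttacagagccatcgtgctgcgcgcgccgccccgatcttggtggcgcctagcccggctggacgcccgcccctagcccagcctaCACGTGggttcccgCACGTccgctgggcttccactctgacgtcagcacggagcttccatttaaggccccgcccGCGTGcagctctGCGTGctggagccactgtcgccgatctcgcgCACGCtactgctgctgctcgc
Slc2a1: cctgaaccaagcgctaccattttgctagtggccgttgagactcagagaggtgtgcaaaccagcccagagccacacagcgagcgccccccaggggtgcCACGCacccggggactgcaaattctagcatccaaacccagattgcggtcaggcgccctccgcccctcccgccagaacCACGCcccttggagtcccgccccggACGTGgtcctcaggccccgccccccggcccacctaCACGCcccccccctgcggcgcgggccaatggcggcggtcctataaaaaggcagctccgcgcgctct

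Smooth muscle contractile genes had the largest share of called genes among the lists: 12 of 14 tested rose and 0 fell, with a list median of 0.99 (0.37 with median centring). Desmin (Des) had ratios of 2.45, 2.02, 2.66 and 2.22 (adjusted p = 6.27e-06). Calponin (Cnn1), an actin-binding regulator of contraction, had 2.01, 1.90, 2.32 and 1.81, and smooth muscle gamma actin (Actg2) had 1.72, 2.06, 2.33 and 1.77 (mean 1.97 ± 0.12, adjusted p = 2.65e-05). The lowest single value among these 3 genes was 1.72, that of Actg2 at 6 h.

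Tropomyosin 2 (Tpm2) rose by 1.74 ± 0.13, transgelin (Tagln) by 1.69 ± 0.13, smoothelin (Smtn) by 1.29 ± 0.12 and the smooth muscle myosin heavy chain Myh11 by 1.06 ± 0.18. Cald1, Myl9, Tpm1, Lmod1 and Mylk rose by 0.48 to 0.92. Of the 12, 10 were called in the average of both pretreatments. The list holds genes of airway as well as vascular smooth muscle, and the arrays do not separate them. Among 17 cardiac muscle genes, 1 rose and 1 fell. The cardiac actin Actc1 rose (1.37, 1.40, 1.21 and -0.05, mean 0.98 ± 0.21), but lost its call without the 6, 12 or 24 h array and changed sign with median centring. The gene that fell was Cox8b (-1.94 ± 0.28), whose other probes had -0.04 and -0.002.

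Matrix genes rose with them. In the list of CCN, matrix, cross-linking and proteolysis genes, 17 of 36 rose and 0 fell, with a median of 0.53 (-0.13 with median centring, 0.36 above all genes). Elastin (Eln) had 2.22, 1.73, 1.38 and 1.83 (mean 1.79 ± 0.21, adjusted p = 0.000759). The CCN genes Ccn2 (1.51 ± 0.12), Ccn1 (1.53 ± 0.23) and Ccn4 (1.50 ± 0.22) had near-equal means, but Ccn1 dropped to 0.62 at 48 h, against 1.75 to 1.95 earlier. The basement membrane collagens Col4a2 (1.46 ± 0.13) and Col4a1 (1.13 ± 0.10), the protease inhibitor Timp1 (1.35 ± 0.26), the cross-linking enzyme Loxl2 (1.31 ± 0.14), the membrane protease Mmp14 (1.01 ± 0.17) and the aggrecan-cleaving protease Adamts1 (1.04 ± 0.14) also rose. For Sparc and Timp2, called higher, the probes were saturated at 0 h on all 4 arrays. Of the 17, 14 were called in the average of both pretreatments.

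Of 26 TGF-beta, activin and BMP genes, 9 rose and 0 fell, with a median of 0.30 (-0.26 with median centring, 0.23 above all genes). Antagonists of activin rose, follistatin (Fst; 2.77, 2.96, 2.66 and 1.97) and the related Fstl3 (1.30 ± 0.13), as did the activin subunit Inhba (0.38 ± 0.08). Bmp2 had 2.02, 2.12, 2.37 and 2.28 (mean 2.19 ± 0.13, adjusted p = 2.65e-05), and the BMP-responsive genes Id1 and Id3 rose by 0.99 ± 0.17 and 0.88 ± 0.14. The BMP antagonist Grem1 rose by 0.87 ± 0.24. Tgfb3 peaked at 12 h (1.15, 2.37, 1.77 and 0.55). The receptor Tgfbr2 rose by 0.41 ± 0.10. Of these 9, 8 were called in the average of both pretreatments.

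Endothelial genes were divided. Of 24 tested, 9 rose and 5 fell, with a median of 0.23 (-0.74 with median centring, below the all-gene median there). The water channel Aqp1 had 1.69, 1.65, 1.97 and 1.84 (mean 1.79 ± 0.11, adjusted p = 3.36e-05). Egfl7, the gap junction proteins Gja4 and Gja5, Tie1, Emcn, Robo4, Esam and the shear-responsive factor Klf2 rose by 0.34 to 1.01. Of these 9, 2 were called in the average of both pretreatments.

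The 5 endothelial genes that fell were Lyve1, Tmem100 (-1.22 ± 0.24), Plvap, Car4 (-0.87 ± 0.16) and Erg (-0.48 ± 0.15), and all 5 were called in the average as well. Plvap, a protein of endothelial fenestrae and caveolae, had -1.08, -1.09, -1.03 and -1.11 (adjusted p = 0.000527), almost without spread. The pan-endothelial markers Pecam1, Cdh5 and Vwf had means of 0.05, 0.12 and -0.02 and were not called.

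Among 17 VEGF and angiopoietin genes, 4 rose and 1 fell, the median being 0.062. The apelin receptor Aplnr had 0.94, 1.40, 1.16 and 1.66 (mean 1.29 ± 0.18), the lymphangiogenic ligand Vegfc 1.26, 1.40, 0.72 and 0.75 (mean 1.03 ± 0.15) and placental growth factor (Pgf) had a mean of 0.71 ± 0.12. Angpt1, the ligand of the receptor Tek, fell by 0.43 ± 0.12. The average of both pretreatments called 2 of the 4 that rose and the 1 that fell. The Vegfc value changed sign with median centring (-0.051).

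Of 35 vasoactive genes, 4 rose and 7 fell, against 8.53% higher and 12.3% lower over all genes. The kininogens Kng1 (2.49, 1.47, 2.77 and 2.20) and Kng2 (2.27, 1.27, 2.66 and 2.09) moved together, but they are close homologues whose probes may share transcripts. Prostacyclin synthase (Ptgis), which makes a vasodilator, had 1.36, 1.46, 2.05 and 1.60 (mean 1.62 ± 0.16, adjusted p = 0.000334), and endothelial nitric oxide synthase (Nos3) rose by 0.90 ± 0.19. Endothelins Edn1 and Edn3 (-0.74 ± 0.09) fell, Edn2 was called lower but not well above background on any array of hypoxic lungs, and falls were found in the VIP receptor Vipr1 (-0.92 ± 0.12), the leukotriene-forming enzyme Alox5 (-0.87 ± 0.17) and the angiotensin receptor Agtr1a (-0.62 ± 0.13). In the average of both pretreatments, 4 of the 4 that rose and 4 of the 7 that fell were called. Among coagulation genes, urokinase (Plau, -0.78 ± 0.18) and the tissue factor pathway inhibitor Tfpi (-0.32 ± 0.10) fell. The Plau call was lost without 6 or 24 h.

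Genes of xenobiotic and retinoid metabolism fell. Of 18 in the aryl hydrocarbon receptor and P450 list, 10 fell and 1 rose, with a median of -0.54 (-1.30 with median centring). Beside Cyp26b1, Cyp2f4, Cyp2e1 and Fmo2, the falls were in the retinal dehydrogenase Aldh1a1 (-2.31, -0.65, -1.23 and -0.92; mean -1.28 ± 0.28), Cyp1a1, Cyp4b1 (-0.85 ± 0.15), Cyp2s1 (-0.66 ± 0.07), Fmo1 (-0.66 ± 0.13) and Cyp3a9 (-0.42 ± 0.11). Cyp1a1, the classical target of the aryl hydrocarbon receptor, had -1.42, -1.21, -1.03 and -1.22 (mean -1.22 ± 0.12, adjusted p = 0.000395), and was well above background on 1 of 4 arrays in hypoxic lungs, against 4 of 4 in 0 h lungs, so that the background limits the size of its fall. The 1 that rose was Cyp51, a step of cholesterol synthesis (0.88 ± 0.15). Of the 10 that fell, 7 were called in the average of both pretreatments.

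Ciliated cell genes were also lower. Of 13 ciliated cell genes, 7 fell, with a median of -0.38 (-1.29 with median centring): the axonemal genes Dnai1 (-0.70 ± 0.12), Dnah9 (-0.59 ± 0.14), Tekt2 (-0.55 ± 0.11), Rsph1 (-0.45 ± 0.11) and Ift172 (-0.41 ± 0.12), with Capsl and Rfx3, the last well above background on 1 of 4 arrays in hypoxic lungs. Tubb4b was called higher, but its probe was saturated at 0 h on all 4 arrays. None of the 7 was called lower in the average of both pretreatments. Of 12 club and airway secretory genes, 3 fell and 1 rose (median 0.099): Cyp2f4, Aldh1a1 and the secretoglobin Scgb1a1 fell and Krt14 rose. Scgb1a1 fell by 0.63 ± 0.18, whereas Scgb3a2 had a mean of -0.13 (adjusted p = 0.514).

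Antioxidant and metal-handling genes moved little, and antioxidant calls were close to the shares over all genes (8.53% higher and 12.3% lower). Of 30 antioxidant and glutathione genes, 3 rose and 3 fell (median 0.044): glutathione peroxidase 3 (Gpx3, 0.95 ± 0.25), thioredoxin reductase (Txnrd1, 0.45 ± 0.09) and Prdx1 (0.25 ± 0.07) rose, and Gsta4 (-0.70 ± 0.16) and Nfe2l2 (-0.41 ± 0.08), the master regulator of the antioxidant response, fell. The third to fall was Gsta1, saturated at 0 h on all 4 arrays. Of 17 metallothionein and zinc genes, 2 rose, the zinc transporter Slc30a4 (0.40 ± 0.10) and the copper pump Atp7a (0.30 ± 0.08), and both had the opposite sign with median centring and lost their call without 6 or 24 h, and Atp7a also without 48 h. Neither was called in the average of both pretreatments, which called 2 of the 3 higher and 2 of the 3 lower antioxidant genes. Metallothionein 1 (Mt1) had 2.33, 0.21, 1.17 and 0.07, a spread that left its mean of 0.94 ± 0.50 uncalled (adjusted p = 0.213). In the iron list, Hmox1, Tfrc and the macrophage metal transporter Slc11a1 (0.84 ± 0.21) rose, and Ftl1, also called higher, was saturated at 0 h.

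Proliferation genes were lower. Of 38 cell cycle and DNA replication genes, 16 fell and 0 rose, with a median of -0.66 (-1.30 with median centring). Topoisomerase 2A (Top2a) had -0.20, -1.83, -1.71 and -0.96 (mean -1.18 ± 0.36), the mitotic kinase Cdk1 had -0.25, -1.83, -1.53 and -0.68 (mean -1.07 ± 0.31) and the spindle checkpoint kinase Ttk had -0.61, -1.75, -1.57 and -1.08 (mean -1.25 ± 0.29, adjusted p = 0.0145). In each, 6 h was closest to 0 and 12 and 24 h were lowest. The list medians at 6, 12, 24 and 48 h were -0.29, -0.92, -0.87 and -0.30, against all-gene medians between -0.033 and -0.0085. The G1 cyclin Ccnd1 fell by 0.79 ± 0.13 and the proliferation marker Mki67 by 0.81 ± 0.20. In the average of both pretreatments, 3 of the 16 were called lower.

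Cytotoxic genes of T and NK cells were also lower. Of 23 T and NK cell genes, 11 fell and 0 rose, with a median of -0.27 (-0.81 with median centring). The cytotoxic granule genes fell together: granzyme B (Gzmb; -1.77, -1.14, -1.79 and -1.30), granzyme A (Gzma; -1.57, -1.10, -2.04 and -0.96; mean -1.42 ± 0.20), perforin (Prf1; -0.95 ± 0.14), Gzmm (-0.91 ± 0.14), Nkg7 (-0.89 ± 0.12) and Gzmk (-0.83 ± 0.15). The falls were larger at 6 and 24 h than at 12 and 48 h for Gzma. The T cell receptor subunit Cd3e had a mean of -0.02 (adjusted p = 0.935). The Fas ligand Faslg, the NK receptors Klrd1 and Klrk1, the transcription factor Tbx21 and Ifng fell by 0.16 to 0.73, with Ifng well above background on 1 of 4 arrays in hypoxic lungs. Of the 11, 10 were called in the average of both pretreatments.

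Antigen presentation followed the same direction, with 6 of 16 MHC genes lower and 1 higher (median -0.26, and -1.17 with median centring). The class II genes RT1-Da (-0.67, -0.66, -0.80 and -0.74; mean -0.72 ± 0.08), RT1-Bb (-0.74 ± 0.18), RT1-Db1 (-0.42 ± 0.11) and RT1-Ba (-0.37 ± 0.11) and the invariant chain Cd74 (-0.46 ± 0.13) fell, as did the immunoproteasome subunit Psmb8 (-0.73 ± 0.21). The average of both pretreatments called 4 of the 6 lower and 0 of the 1 higher. Among adhesion molecules, the leukocyte integrin chain Itgb2 had -1.17, -1.45, -1.02 and -1.02 (mean -1.16 ± 0.10, adjusted p = 0.000229).

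Inflammatory mediators were mixed. Of 30 chemokine genes, 3 rose and 3 fell, close to the shares over all genes (8.53% higher and 12.3% lower). The monocyte chemokines Ccl2 (0.93 ± 0.14) and Ccl7 (0.50 ± 0.10) rose, while Ccl5 (-0.99 ± 0.16) and the receptors Cxcr4 and Ccr2 (-0.32 ± 0.08) fell. Cxcl12 was read by 2 probes with opposite values, 1.72 at chr4:153761046-153761105 and -1.46 at chr4:153755058-153755117 (rn3, both on the plus strand), and its call was lost when probes were averaged (0.13). Among 23 interleukin genes, 5 rose and 3 fell: the shared IL-6 receptor chain Il6st (1.30 ± 0.19), Tnfrsf1a (0.74 ± 0.12), Socs3 (0.43 ± 0.09), Il4r (0.42 ± 0.11) and Osmr (0.24 ± 0.07) rose, and the alarmin Il33 (-0.91 ± 0.10), Il15 (-0.67 ± 0.10) and Il2rb (-0.59 ± 0.11) fell. The average of both pretreatments called 3 of the 5 higher and 3 of the 3 lower interleukin genes, and all 6 chemokine genes. Of 18 macrophage genes, Spp1, the chitinase-like Chi3l1 (1.44 ± 0.21), Fabp4 (0.91 ± 0.23) and Gpnmb (0.52 ± 0.13) rose and Adgre1 fell by 0.71 ± 0.21.

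**Figure D2:**
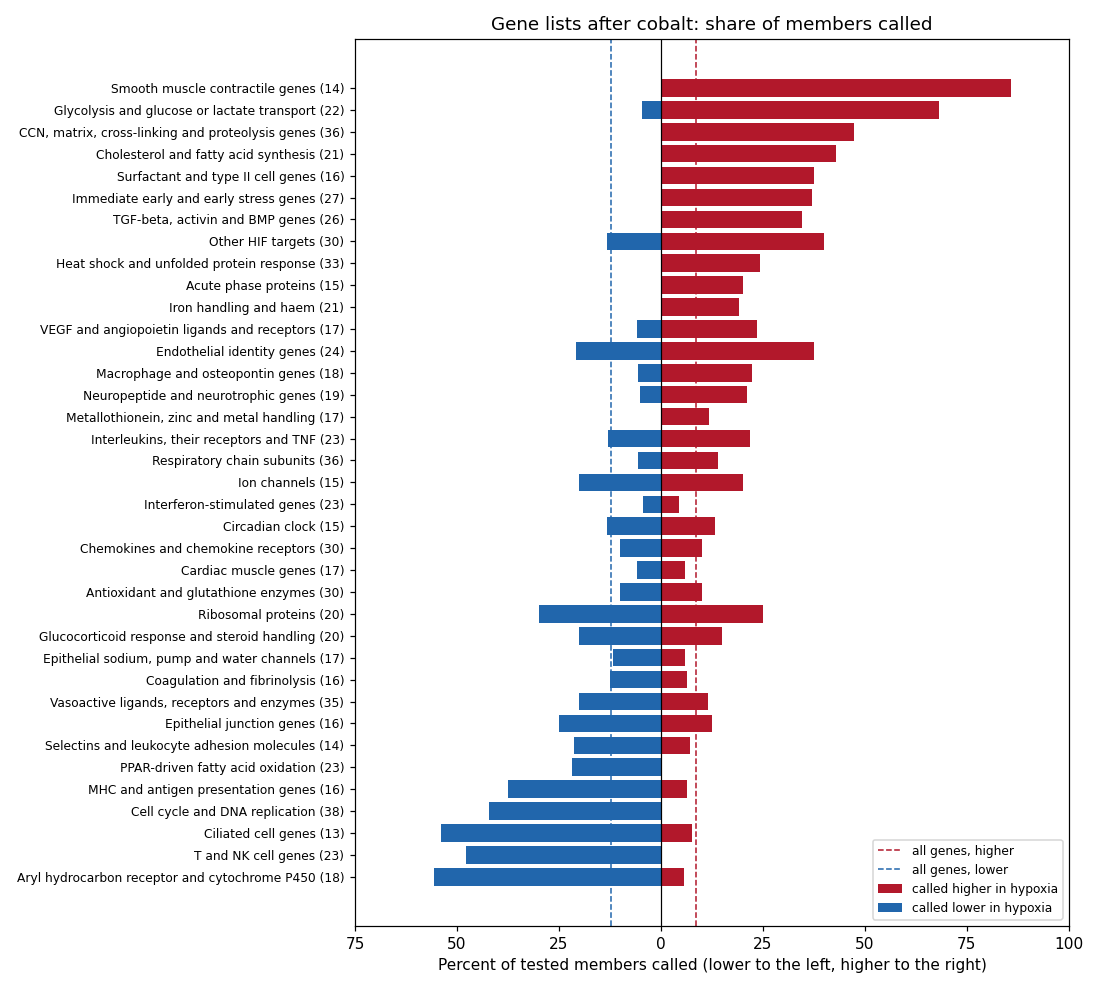
Share of each list's tested genes that was called higher or lower in hypoxia against 0 h after cobalt, in percent, with dashed lines at the shares over all genes (8.53% higher and 12.3% lower). Smooth muscle, with 12 of 14 higher, and glycolysis, with 15 of 22, have the longest bars on the higher side, and the aryl hydrocarbon receptor and P450 list, with 10 of 18, on the lower side. The surfactant and ribosomal bars include genes saturated at 0 h.

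Early stress genes rose. Of 27 immediate early genes, 10 rose and 0 fell, with a median of 0.35 (-0.29 with median centring, 0.20 above all genes). Junb, a subunit of AP-1, had 1.70, 1.41, 1.63 and 1.07 (mean 1.45 ± 0.17, adjusted p = 0.000884), and Atf3, a stress-induced repressor, had a mean of 0.88 ± 0.18. The orphan nuclear receptors Nr4a3 and Nr4a2, Ccn1, Ier3, Myc, Klf4, Btg2 and Klf2 made up the rest. The list medians at 6, 12, 24 and 48 h were 0.63, 0.52, 0.31 and 0.014. In the average of both pretreatments, 6 of the 10 were called. Both late arrays lay below both early arrays for 14 of the 27 (51.9%), against 26.7% of all genes.

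Other stress responses differed in breadth. Of 20 glucocorticoid-related genes, the kinase Sgk1 (1.68, 1.98, 2.09 and 1.49; mean 1.81 ± 0.15, adjusted p = 0.000125), Gadd45g (1.21 ± 0.15) and the clock gene Per1 (0.84 ± 0.20) rose, while the cortisol-inactivating enzyme Hsd11b2 (-1.42 ± 0.28), Nr3c2 (-0.71 ± 0.12), Anxa1 (-0.58 ± 0.09) and the glucocorticoid receptor Nr3c1 (-0.43 ± 0.09) fell. The Per1 call was lost without 6 or 24 h. Of the glucocorticoid-related calls, 2 of the 3 higher and 3 of the 4 lower were found in the average of both pretreatments. Of 33 heat shock and unfolded protein genes, 8 rose and 0 fell. The list median was 0.25. With median centring it was -0.73, below the median of all genes there (-0.24 relative to it). Among the 8 were Atf4 (0.74 ± 0.22), the endoplasmic reticulum chaperones Calr (0.71 ± 0.15) and Hspa5 (0.63 ± 0.17), and the small heat shock protein Hspb8 (0.60 ± 0.12). The Calr call was lost without 24 h. All 8 were called in the average of both pretreatments. Of 15 acute phase genes, 3 rose: the protease inhibitor Serpina3n (2.92, 1.34, 2.72 and 0.96; mean 1.99 ± 0.39), Saa4 (1.58 ± 0.39) and the complement gene C4a (0.75 ± 0.23). For Saa4, 2.96 at 6 h stood above 0.97 to 1.37 later, and the call was lost without 6 or 24 h. Among the acute phase calls, 2 of the 3 were found in the average of both pretreatments.

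The comparison of 24 and 48 h with 6 and 12 h called 0 of 24161 genes (0%) with limma, and 1976 had an unadjusted p under 0.05. Groups of genes nevertheless differed in their courses, which are given here as descriptions of single arrays. All 10 erythroid genes tested had their highest ratio at 48 h, against 27.9% of all genes, and their medians at 6, 12, 24 and 48 h were -0.43, -0.45, 0.054 and 1.84. The anion exchanger of red cells Slc4a1 had -0.61, -0.84, 1.09 and 3.02, the haemoglobin-stabilising protein Ahsp had -0.38, 0.34, 1.13 and 3.13, and beta globin (Hbb) had -0.81, -0.71, -0.05 and 2.23. The rise rests on the 48 h array, without which the list median was -0.17, and no erythroid gene was called in the mean of 4 arrays. Blood in the tissue moves these genes too, and its part was not tested.

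The 23 interferon-stimulated genes had ratios higher on both late arrays than on both early arrays in all cases (100%), against 22.7% of all genes, and the late arrays did not overlap the early ones for 49.4% of all genes. Their medians were -0.48, -0.46, 0.53 and 0.37. The ubiquitin-like modifier Isg15 had -0.51, -0.55, 1.51 and 0.62, the antiviral GTPase Mx2 had -1.03, -0.63, 1.38 and 0.91, and the transcription factor Irf7 had -0.51, -0.29, 0.69 and 0.70. Isg15, Mx2 and Irf7 were each below 0 h early and above it late. Of the 23 genes, 2 were above 0 at 6 h, 4 at 12 h, 19 at 24 h and 19 at 48 h. The 4-array means had a median of 0.023 and ran from -1.097 to 1.60. In this list 2 were called, Bst2 higher (1.60 ± 0.19) and Gbp5 lower (-0.39 ± 0.12), and neither changed sign between arrays. The Gbp5 call was lost without any single cobalt array or the 24 or 48 h saline array. The smallest adjusted p of the 23 genes for late against early was 0.6 by limma.

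Ankrd1, a stretch-responsive cofactor of muscle, had 0.59, 0.65, 2.62 and 3.59, and its mean of 1.86 ± 0.60 narrowly missed the threshold (adjusted p = 0.0544). It was among the 3 genes with the lowest p for late against early, with a difference of 2.49 (adjusted p = 0.6). The others were the aldehyde oxidase Aox3, at 0.97, 0.87, 0.19 and 0.17, and the GDNF family receptor Gfra4, at 0.31, 0.09, -0.29 and -0.52. Matrix genes also tended to be higher late, with 20 of 36 (55.6%) above both early arrays, and the list median was 0.32 at 6 h, 0.40 at 12 h, 0.64 at 24 h and 0.76 at 48 h.

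**Figure D3:**
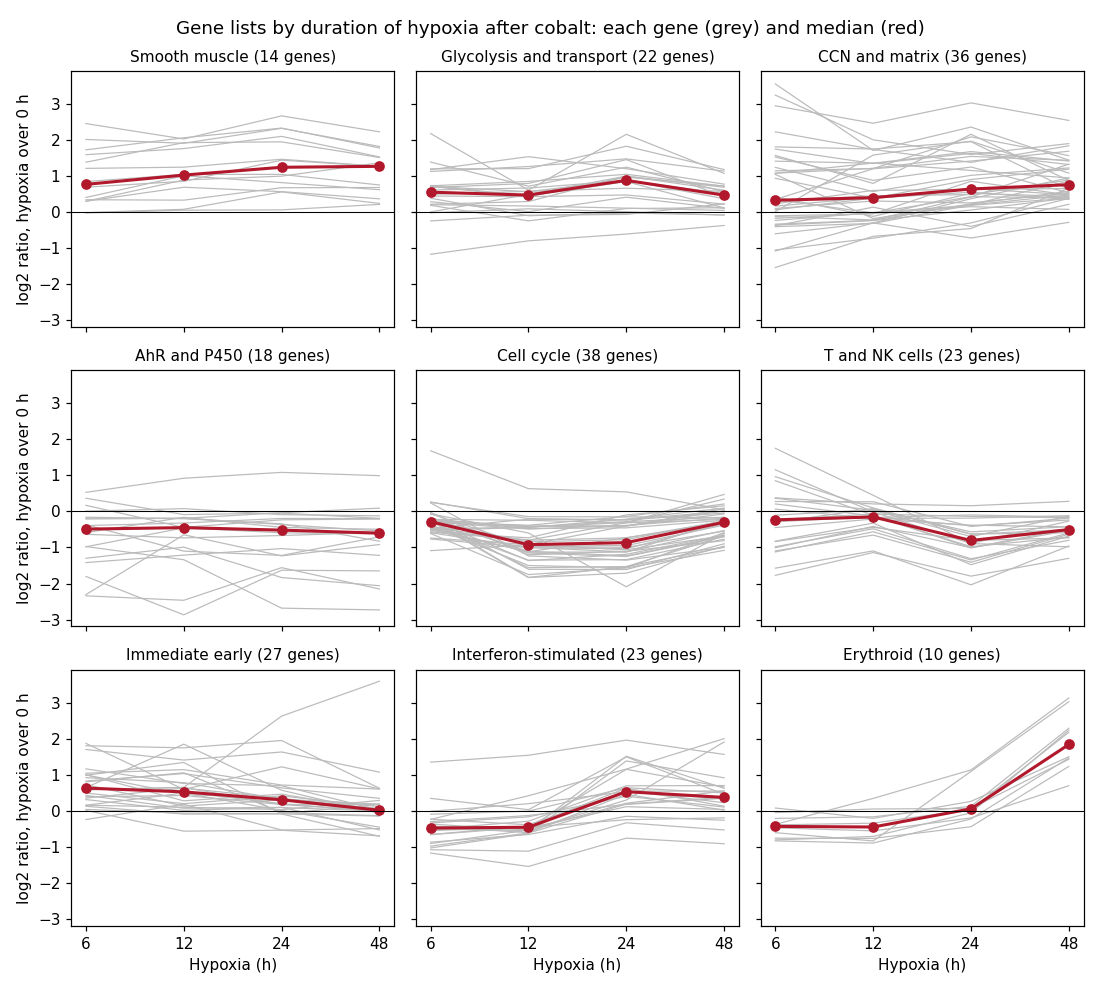
Log2 ratio of hypoxia over 0 h after cobalt at 6, 12, 24 and 48 h for 9 lists, with a grey line for each tested gene and a red line for the list median. The erythroid median reaches 1.84 at 48 h, the interferon-stimulated median lies below 0 at 6 and 12 h and above it at 24 and 48 h, and the cell cycle median is lowest at 12 h (-0.92).

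Genes of lipid synthesis rose and some of lipid oxidation fell. Of 21 cholesterol and fatty acid synthesis genes, 9 rose and 0 fell, with a median of 0.39 (-0.25 with median centring, 0.25 above all genes). Isopentenyl diphosphate isomerase (Idi1) had 1.07, 2.00, 1.72 and 1.50 (mean 1.57 ± 0.21, adjusted p = 0.00164), and HMG-CoA synthase (Hmgcs1) had 0.59, 1.82, 1.16 and 1.12 (mean 1.17 ± 0.24). In both, 6 h was lowest. The desaturase Scd (1.53 ± 0.21), Fdps (0.97 ± 0.14), Msmo1 and Sqle also rose, and 8 of the 9 were called in the average of both pretreatments. Of 23 fatty acid oxidation genes, 5 fell and 0 rose, the carnitine palmitoyltransferase Cpt1a (-0.72 ± 0.17), Acot2 (-0.62 ± 0.11), Ehhadh (-0.34 ± 0.07), Acadm (-0.27 ± 0.07) and Ppara, which was not well above background on any array of hypoxic lungs, and of the 5, 1 was called in the average.

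Respiratory chain subunits showed small shifts, with 5 of 36 higher and 2 lower (median 0.041), of which Cox6a1, called higher, was saturated at 0 h on all 4 arrays. In the average of both pretreatments, 4 of the 5 and 1 of the 2 were called. Cytochrome c (Cycs) rose by 0.42 ± 0.06, and the hypoxia-inducible isoform Cox4i2 by 0.31 ± 0.09, while the succinate dehydrogenase subunits Sdha (-0.42, -0.52, -0.54 and -0.47; mean -0.49 ± 0.07) and Sdhb (0.22 ± 0.07) moved in opposite directions. Of 20 ribosomal protein genes, 5 were called higher and all 5 were saturated at 0 h. None of the 5 was called higher in the average of both pretreatments. Rpl5, unsaturated, had -0.76, -0.76, -0.90 and -0.79 (mean -0.80 ± 0.06, adjusted p = 0.000111).

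In alveolar epithelium, 6 of 16 surfactant and type II cell genes were called higher and 0 lower, but 4 of the 6 (Sftpc, Sftpb, Sftpa1 and Lyz2) were saturated at 0 h on all 4 arrays. Over the 10 unsaturated genes the median was 0.095. The 2 unsaturated calls were the desaturase Scd and the lung transcription factor Nkx2-1 (0.16, 0.57, 0.24 and 0.26; mean 0.31 ± 0.09). None of the 6 was called higher in the average of both pretreatments. Among type I cell genes, Igfbp6 rose by 1.23 ± 0.25 and Rtkn2 fell by 0.71 ± 0.16, the Igfbp6 call being lost without 24 h and the Rtkn2 call without 6, 24 or 48 h, and Ager and Aqp5 had -0.42 and -0.61 (adjusted p = 0.284 and 0.142).

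Ion and water transport changed in a few genes. Of 17 sodium, pump and water channel genes, Aqp1 rose, and the sodium channel subunit Scnn1b fell by 0.50 ± 0.13. Scnn1a had 0.18, 0.65, 0.23 and -0.03 (mean 0.26 ± 0.23, adjusted p = 0.476). Among junction genes, claudin 7 (Cldn7, 1.22 ± 0.15) and keratin 7 (Krt7, 0.57 ± 0.11) rose, while Epcam (-0.67 ± 0.15), claudin 4 (Cldn4, -0.67 ± 0.16), Krt19 (-0.50 ± 0.13) and E-cadherin (Cdh1, -0.32 ± 0.08) fell. Both higher junction calls and 0 of the 4 lower ones were found in the average of both pretreatments. The Krt7 value changed sign with median centring (-0.66). Of 15 ion channel genes, the smooth muscle potassium channel subunit Kcnmb1 (0.70 ± 0.17), Trpv4 (0.69 ± 0.16) and Trpc6 (0.27 ± 0.08) rose, and Abcc9 (-0.82 ± 0.11) and Trpc1 (-0.34 ± 0.08) fell.

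Smaller lists gave few calls. Beside Nrn1 and Ntrk2, neurturin (Nrtn, 0.95 ± 0.12) and Gdnf (0.94 ± 0.20) rose and the GDNF family receptor Gfra2 fell by 1.08 ± 0.25. In mast cells, the proteases Tpsb2 (0.06, 1.91, 1.12 and 1.97) and Cma1 rose, the Tpsb2 call being lost without 12, 24 or 48 h, and the histamine-forming enzyme Hdc (-0.53 ± 0.08) and the receptor Kit (-0.50 ± 0.13) fell. The adipokine resistin (Retn) had 2.04, 2.53, 2.18 and 1.27 (mean 2.01 ± 0.49), with the call lost without 6, 12 or 24 h, and Adipoq was well above background on no array of hypoxic lungs. Cd22 was the 1 called of 9 B cell genes (-0.43 ± 0.09), and Ngp the 1 of 11 neutrophil genes (0.25 ± 0.06), a call lost without 6, 24 or 48 h, in a gene well above background on 2 of 4 arrays in hypoxic lungs and 1 of 4 in 0 h lungs. In the clock list of 15, Per1 and Bhlhe40 rose and Per3 and Rora fell. Of 14 selectin and adhesion genes, the endothelial selectin Sele was the 1 that rose, and the leukocyte integrin chains Itgal, Itga4 and Itgb2 fell.

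The response after cobalt differed from that after saline in 7282 of 24161 genes (30.1%), 3065 higher (12.7%) and 4217 lower (17.5%), by the limma contrast of the 2 responses. This difference also takes in the dye orientation, which pulls the 2 pretreatments in opposite directions. After saline, 40.1% of genes were called, 21.8% higher and 18.3% lower. Of the 2060 genes that rose after cobalt, 721 also rose after saline, 427 fell and 912 were not called. Of the 2965 that fell after cobalt, 699 also fell after saline, 717 rose and 1549 were not called. The 4 cobalt values lay wholly above or below the 4 saline values for 31.9% of genes, as for Bmp2, Bst2, Eln and Crym. The ratios of cobalt and saline arrays correlated at -0.098 to 0.269 over all genes.

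Some genes had close means in both pretreatments. Ccn3 had a mean of 2.74 after cobalt and 2.85 after saline, Slc2a1 had 0.98 after cobalt and 1.00 after saline, and Kng1 had 2.23 after cobalt and 2.39 after saline. The differences were -0.11 ± 0.23 for Ccn3, -0.024 ± 0.23 for Slc2a1 and -0.15 ± 0.33 for Kng1 (SE), and none passed the threshold. Of 14 smooth muscle genes, 8 differed, all higher after cobalt, against 12.7% of all genes higher. In hypoxic lungs after saline, the probe of Tpm2 was saturated on 4 of 4 arrays and that of Myl9 on 2. Their ratios after saline are therefore bounded by the scanner. Desmin (Des), whose probe was not saturated, had 2.34 after cobalt against 1.71 after saline (difference 0.63, adjusted p = 0.0146 by limma). Bmp2 had 2.02 to 2.37 after cobalt against -0.22 to 0.69 after saline (difference 2.00, adjusted p = 0.00017 by limma). Its cobalt and saline arrays did not overlap, as for 31.9% of all genes.

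Other groups differed in direction or size. Over all genes, 21.8% rose and 18.3% fell after saline, 8.53% rose and 12.3% fell after cobalt, and 12.7% differed higher and 17.5% lower after cobalt. Of 24 endothelial genes, 0 rose and 16 fell after saline, against 9 and 5 after cobalt, and 16 differed, all higher after cobalt. Vegfa had 0.05 after cobalt against -1.49 after saline, with Epas1 below 0 in both, at -0.33 after cobalt against -1.85 after saline. Of 13 ciliated genes, 10 rose after saline, 7 fell after cobalt and 12 differed with the cobalt value lower. Cyp1a1 fell after both, but after cobalt it was well above background on 1 of 4 hypoxia arrays, against 3 of 4 after saline, so the sizes of the falls are limited by the background and are not compared. The nuclear thyroid hormone-binding protein Crym had -1.28, -1.41, -1.37 and -1.27 after cobalt against 1.097, 1.08, 1.68 and 1.36 after saline, with an average of -0.01. Equal and opposite values of this kind are also what a dye bias of a probe would give, and dye and pretreatment cannot be told apart.

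**Figure D4:**
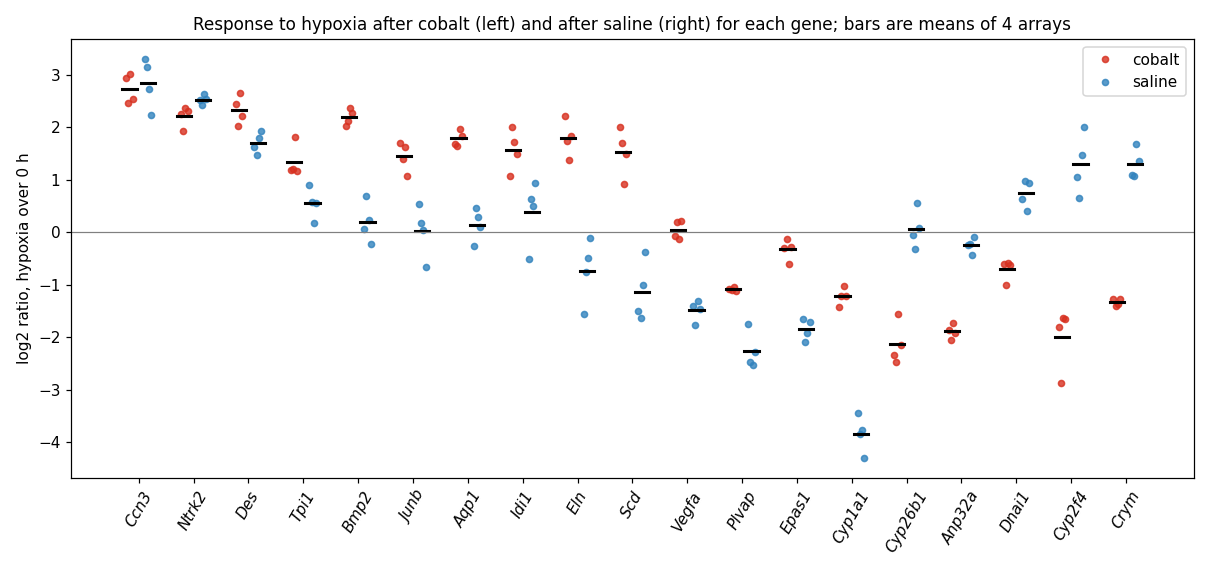
Log2 ratio of hypoxia over 0 h for 19 named genes, with the 4 cobalt arrays on the left and the 4 saline arrays on the right of each gene. Bmp2 lies above 2 after cobalt and between -0.22 and 0.69 after saline, while Crym lies below -1.2 after cobalt and above 1 after saline.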

How the data were processed

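Lung RNA was hybridised to Agilent 4x44k rat arrays. Per the file headers, Feature Extraction 9.5.1.1 wrote the deposited spot intensity in green and red, and a log10 ratio of red over green. The deposited series matrix holds log2 ratios, which match that log10 ratio in size, scaled and turned to hypoxia over 0 h, with column medians of 0. From mean spot signals and background, limma 3.58.1 in R 4.3.3 applied normexp (offset 50, which shrinks ratios of dim spots) and loess within each array, with outlier spots left out. Of 41012 probes, 28440 were kept, well above background in a channel on at least 4 arrays. Each gene was read from its brightest probe, and 3477 genes had several. Probe names came from the files, updated through RefSeq accessions and symbols. All 8 arrays entered the fit with a mean per pretreatment, a variance trend and Benjamini-Hochberg adjustment. Named genes were the 12 highest and 12 lowest called with the same sign on 4 arrays, up to 2 per list with the lowest p, those differing most between pretreatments or with the lowest late-against-early p, and 13 fixed genes. Members of the lists named beyond these were chosen after their values were seen. The lists were chosen with earlier results of these data known. The scripts were tested on simulated data. Alternatives changed background correction, normalization, filter, probe choice, outliers, variance model and arrays. Some members of the lists are counted but not reported by name here.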

Additional observations from a re-analysis of the deposited data

Results flagged for a closer look

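For 63 of 122 named genes the response to hypoxia differed between pretreatments by the limma contrast of the cobalt response minus the saline response, with an adjusted p under 0.05. Some of the named genes were picked because they differed most between pretreatments, so this share is set by the choice and is not compared with that of all genes. The values in brackets are that difference in log2 units. Pretreatment, slide, scan day and dye orientation coincide, so none of these differences can be told apart from them.

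The means had opposite signs in the 2 pretreatments for a group of genes. In those with the higher value after cobalt, the differences were Egln2 (0.90), Slc30a4 (0.49), Atp7a (0.71), Aplnr (2.05), Per1 (1.18), Ccn1 (1.57), Scd (2.66), Bst2 (3.001), Tap2 (0.89), Ngp (0.36), Hcls1 (2.64), Eln (2.52) and Vegfa (1.54). In those with the lower value after cobalt, they were Cyp2a3 (-2.71), Cyp26b1 (-2.19), Cyp2f4 (-3.29), Fmo2 (-2.38), Ckap2 (-2.08), Pimreg (-1.48), Nfe2l2 (-0.44), Rora (-0.22), Dnai1 (-1.45), Faslg (-0.89), Prtn3 (-0.47), Cidea (-0.61), Acot2 (-0.92), Ehhadh (-0.53), Sdha (-0.54), Rpl5 (-1.11), Acot1 (-3.34), Agr2 (-3.27), Crym (-2.64) and Ccl19 (-2.54). Bst2, an antiviral membrane protein, the elastic fibre protein elastin (Eln) and the leukocyte adaptor Hcls1 were called higher after cobalt and had means below 0 after saline. Agr2, Ccl19 and Acot1 were not called after cobalt, with means of -0.85, -0.60 and -1.43.

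The means had the same sign and were larger in size after cobalt for another group, with differences of Des (0.63), Bmp2 (2.00), Tpi1 (0.79), Aldoa (0.87), Vegfc (0.72), Ptgis (0.95), Sgk1 (0.75), Junb (1.43), Calr (0.63), Aqp1 (1.64), Krt14 (1.05), Cldn7 (0.86), Cxcl12 (1.18), Il6st (1.24), Chi3l1 (1.37) and Idi1 (1.18) where both were above 0, and of Anp32a (-1.64), Pdia5 (-0.77), Itgb2 (-1.05) and RT1-Da (-0.70) where both were below 0. The means had the same sign and were smaller in size after cobalt for Ccn2 (-0.58), Plvap (1.18), Cxcr4 (0.58), Fcer2 (1.07) and Epas1 (1.52). Cyp1a1 was lower in hypoxia in both pretreatments, with a computed difference of 2.62, but was well above background on 1 of 4 hypoxia arrays after cobalt and 3 of 4 after saline, so that no order of the sizes is given. Ftl1, Sftpc, Rplp1 and Tubb4b also differed, by 2.21, 3.21, 2.00 and 0.50, but their probes were saturated at 0 h on all 4 cobalt arrays, so that these differences are bounded by the scanner.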

How the results depend on the processing

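The counts moved most with median centring in place of loess, which called 19441 genes after cobalt (4922 higher and 14519 lower, or 25.3% higher, against 41.0% with loess) and 19074 in the difference between pretreatments (14962 lower, 21.6% higher, against 42.1%). The same setting reversed 22 named genes, at -0.64 for Egln2, -0.43 for Slc30a4, -0.40 for Atp7a, -0.48 for Txnrd1, -0.051 for Vegfc, -1.52e-05 for Per1, -0.065 for Hspb8, -0.32 for Calr, -0.020 for Nrtn, -0.014 for Actc1, -0.71 for Tubb4b, -0.66 for Krt7, -0.37 for Tap2, -0.54 for Pf4, -0.63 for Cycs, -0.12 for Rplp1, -0.66 for Hif1a, -0.42 for Egln3, -0.97 for Vegfa, -0.011 for Slc2a1, -0.31 for Ldha and -0.78 for Scnn1a. The cause was not tested. Leaving out single arrays gave 2238 to 5599 genes called after cobalt (994 to 2318 higher and 1244 to 3281 lower), and 5196 to 7287 in the difference. For late against early it gave 0 to 2 genes called, both lower and without the cobalt 12 h array. The other settings called 4584 genes (no filter on dim probes) to 7385 (scaling between arrays), and 4877 without saturated probes, an alternative chosen after seeing the data. Of 108 named genes called after cobalt, 60 kept their call and sign in every alternative that tested them. Without median centring the count was 80. A gene that an alternative removed, such as one with a saturated probe, was not counted as lost there. Each group of a pretreatment and duration had 1 array, so no replicate numbers could pair hypoxia groups. Cobalt and saline arrays can be matched by duration, and with duration as a factor 5003 genes were called after cobalt and 7227 in the difference. Probes near background, and those saturated in red (0 h after cobalt, hypoxia after saline), limit what the arrays can measure.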
